A study of Homo sapiens with 16 samples.

Results

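The 10 genes described here handle glutathione and the cysteine it is made from. They were chosen by name and role, with earlier results of these data known. They are 10 of the 25369 genes in the deposited count table: CHAC1, CHAC2 and GGCT (glutathione breakdown), CBS and CTH (transsulfuration), GCLC, GCLM and GSS (glutathione synthesis), and GSR and GPX4 (glutathione recycling and use). Their mRNA was measured in TPC1 and K1 (derived from GLAG-66), human cell lines of papillary thyroid carcinoma, after treatment for 24 h with vehicle (0.2% DMSO), with 10 µM nutlin (Nutlin-3a), with 25 µM GSK2830371, or with both drugs at those doses. Nutlin frees the transcription factor p53 from its inhibitor MDM2, and GSK2830371 is an allosteric inhibitor of the phosphatase PPM1D, which restrains p53 signalling. Each line and treatment has 2 libraries of strand-specific poly(A)+ RNA, 16 in all, which the study's methods describe in general terms as independently prepared biological replicates. The labels do not tie a library to a culture. The p-values rest on the spread between 2 samples per group, pooled over all groups in a fit and with information from the other genes. TPC1 was grown in RPMI and K1 in DMEM, so that line and medium cannot be told apart. Sequencing run was taken to go with line too, and cannot be told apart from it in a level compared between the lines.

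Glutathione is a tripeptide of glutamate, cysteine and glycine and the main small thiol of the cell. Cysteine is taken up as cystine or made from homocysteine by CBS and CTH, the glutamate cysteine ligase GCLC with its modifier GCLM joins it to glutamate, and GSS adds glycine. CHAC1 and CHAC2 cleave glutathione inside the cell, and GGCT acts on the gamma-glutamyl dipeptides formed in the gamma-glutamyl cycle. GPX4 spends glutathione to reduce lipid hydroperoxides, and GSR reduces the oxidized form again. CHAC1 is a known target of ATF4, the transcription factor of the integrated stress response, and GCLC, GCLM and GSR are known targets of NFE2L2.

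Library totals were between 30789887 and 76648552 counted reads in TPC1 and between 28888686 and 37161241 in K1. The TPC1 columns are numbered 1 and 3 where the labels number the samples 1 and 2, and libraries are named here by the column numbers; the number-3 libraries are the deepest, at 62853375 reads or more. Nutlin raised CDKN1A by 5.61 (TPC1) and 3.16 (K1) and MDM2 by 4.96 and 3.05 on the log2 scale. Both are p53 targets, and these values check the nutlin labels but not those of GSK2830371. Of 7 thyroid follicular markers, PAX8, FOXE1 and TG exceeded 1 CPM (counts scaled to library size) in at least 1 library of each line, while TSHR had no count in any library, and of 6 epithelial markers KRT7, KRT8 and KRT18 did so. The other epithelial markers, KRT19, EPCAM and CDH1, reached at most 0.827, 0.521 and 0.0685 CPM in any library. Of 11 markers of leukocytes, endothelium, fibroblasts and muscle, only COL1A1 exceeded 1 CPM in either line.

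On GRCh37, CHAC1 lies at chr15:41245160-41248710 (plus strand, 3 exons) and its relative CHAC2 at chr2:53994941-54002333 (plus, 3 exons). GGCT lies at chr7:30536237-30544457 (minus, 4 exons). CBS lies at chr21:44473301-44497053 (minus, 17 exons) and CTH at chr1:70876901-70905534 (plus, 12 exons). GCLC lies at chr6:53362139-53481768 (minus, 16 exons), GCLM at chr1:94350755-94375012 (minus, 7 exons) and GSS at chr20:33516235-33543830 (minus, 13 exons). GPX4 lies at chr19:1103981-1106790 (plus, 7 exons). Counts are of reads over exons, and a level compared between genes below is CPM divided by transcript length in kb.

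The 250 bases upstream of the start are shown for CHAC1 and CTH, which rose under the combination of drugs in both lines, for CHAC2, the relative of CHAC1 that fell, and for CBS and GCLM, which hold a match to another motif. They are RefSeq sequences on GRCh38.p14, chr15:40953221-40953470 (plus) for CHAC1, chr1:70411018-70411267 (plus) for CTH, chr2:53767533-53767782 (plus) for CHAC2, chr21:43076378-43076627 (minus) for CBS and chr1:93909431-93909680 (minus) for GCLM, each read 5′ to 3′ on the gene's strand. Capitals mark a match on either strand to TGATGNAA, the C/EBP-ATF response element that ATF4 can bind, or to TGACNNNGC, the core of the antioxidant response element that NFE2L2 can bind.
CHAC1: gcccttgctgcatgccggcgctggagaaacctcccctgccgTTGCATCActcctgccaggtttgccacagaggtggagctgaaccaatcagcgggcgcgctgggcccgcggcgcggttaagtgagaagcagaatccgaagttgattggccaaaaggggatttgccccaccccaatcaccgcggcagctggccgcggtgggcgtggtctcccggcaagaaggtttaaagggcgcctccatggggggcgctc
CTH: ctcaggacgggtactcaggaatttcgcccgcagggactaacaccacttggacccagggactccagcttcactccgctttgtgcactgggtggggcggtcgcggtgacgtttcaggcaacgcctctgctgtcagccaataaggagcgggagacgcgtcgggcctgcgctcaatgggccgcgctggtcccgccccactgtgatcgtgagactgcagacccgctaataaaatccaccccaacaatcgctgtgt
CHAC2: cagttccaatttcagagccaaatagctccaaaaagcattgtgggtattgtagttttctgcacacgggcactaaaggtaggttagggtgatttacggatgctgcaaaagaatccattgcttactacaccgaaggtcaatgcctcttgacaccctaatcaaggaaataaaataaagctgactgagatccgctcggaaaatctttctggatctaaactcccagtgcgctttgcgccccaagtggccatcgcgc
CBS: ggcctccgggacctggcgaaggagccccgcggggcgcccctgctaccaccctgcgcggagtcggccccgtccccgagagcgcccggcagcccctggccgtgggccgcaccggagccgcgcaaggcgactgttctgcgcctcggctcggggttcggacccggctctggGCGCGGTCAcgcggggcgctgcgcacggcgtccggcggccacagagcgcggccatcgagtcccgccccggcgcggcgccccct
GCLM: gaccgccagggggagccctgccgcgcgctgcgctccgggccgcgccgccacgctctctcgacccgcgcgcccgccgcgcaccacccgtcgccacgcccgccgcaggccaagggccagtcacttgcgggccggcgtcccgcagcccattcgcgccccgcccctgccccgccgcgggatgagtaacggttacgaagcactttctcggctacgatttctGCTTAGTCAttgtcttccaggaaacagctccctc

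Promoter entries of 250 bases before and 50 after the start were searched for CHAC1, CHAC2, CBS, CTH, GCLC, GCLM and GPX4. CHAC1 alone of these held TGATGNAA, as TTGCATCA on the minus strand at position -209 from the start, and 3.62% of 35116 RefSeq promoters of that length hold the motif. TGACNNNGC occurred in CBS at -83 and in GCLM at -34, and in 13.3% of all promoters. TGACGTCA, the cyclic AMP response element, occurred in none of them and in 1.85% of all promoters. A match of letters is a description and not a site, and the motifs can overlap one another.

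Counts of the genes that rose or fell rest on edgeR's quasi-likelihood test within a line, with Benjamini-Hochberg adjustment over all genes tested, at an adjusted p under 0.05 and a fold change over 1.5. All 10 genes passed the filter on low counts in both lines. In TPC1, nutlin against DMSO raised GSS and lowered CHAC1, CHAC2, GGCT and GCLM, 1 and 4 of 10, where 17.5% of all 15273 genes tested were called higher and 18% lower. GSK2830371 against DMSO raised CHAC1 and CTH and lowered none of the 10, against 0.72% of genes higher and 0.681% lower, and at an unadjusted p under 0.05 edgeR had 3 of the 10 higher and 1 lower. The combination against DMSO raised CHAC1, CTH and GSS and lowered CHAC2 and GSR, 3 and 2 of 10, against 22.5% and 21.7% of all genes. Against nutlin alone, the combination raised CBS, CHAC1 and CTH and lowered none of the 10, against 6.46% and 5.66% of all genes, with 6 higher and 1 lower at an unadjusted edgeR p under 0.05. The median log2 change of the 10 in those 4 comparisons was -0.40, 0.15, -0.13 and 0.26, and that of all genes lay between -0.01 and 0.01.

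In K1, nutlin lowered CHAC1 and GGCT and raised none of the 10, where 5.43% of 15900 genes were called lower and 3.84% higher, with 6 lower and 0 higher at an unadjusted edgeR p under 0.05. None of the 10 was called under GSK2830371, where 0.736% of all genes were called higher and 1.5% lower. DESeq2 called none of the 10 there either, and 2 (CTH and GSR) were higher and 0 lower at an unadjusted edgeR p under 0.05. The combination against DMSO raised CHAC1 and CTH and lowered CHAC2 and GGCT, against 7.62% and 8.09% of all genes, and against nutlin alone it raised CHAC1 and CTH and lowered none, against 1.16% and 1.52%, with 5 higher and 0 lower at an unadjusted edgeR p under 0.05. The medians of the 10 were -0.28, 0.10, 0.13 and 0.22. These comparisons share their DMSO or nutlin libraries and are not independent of one another.

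**Figure D1:**
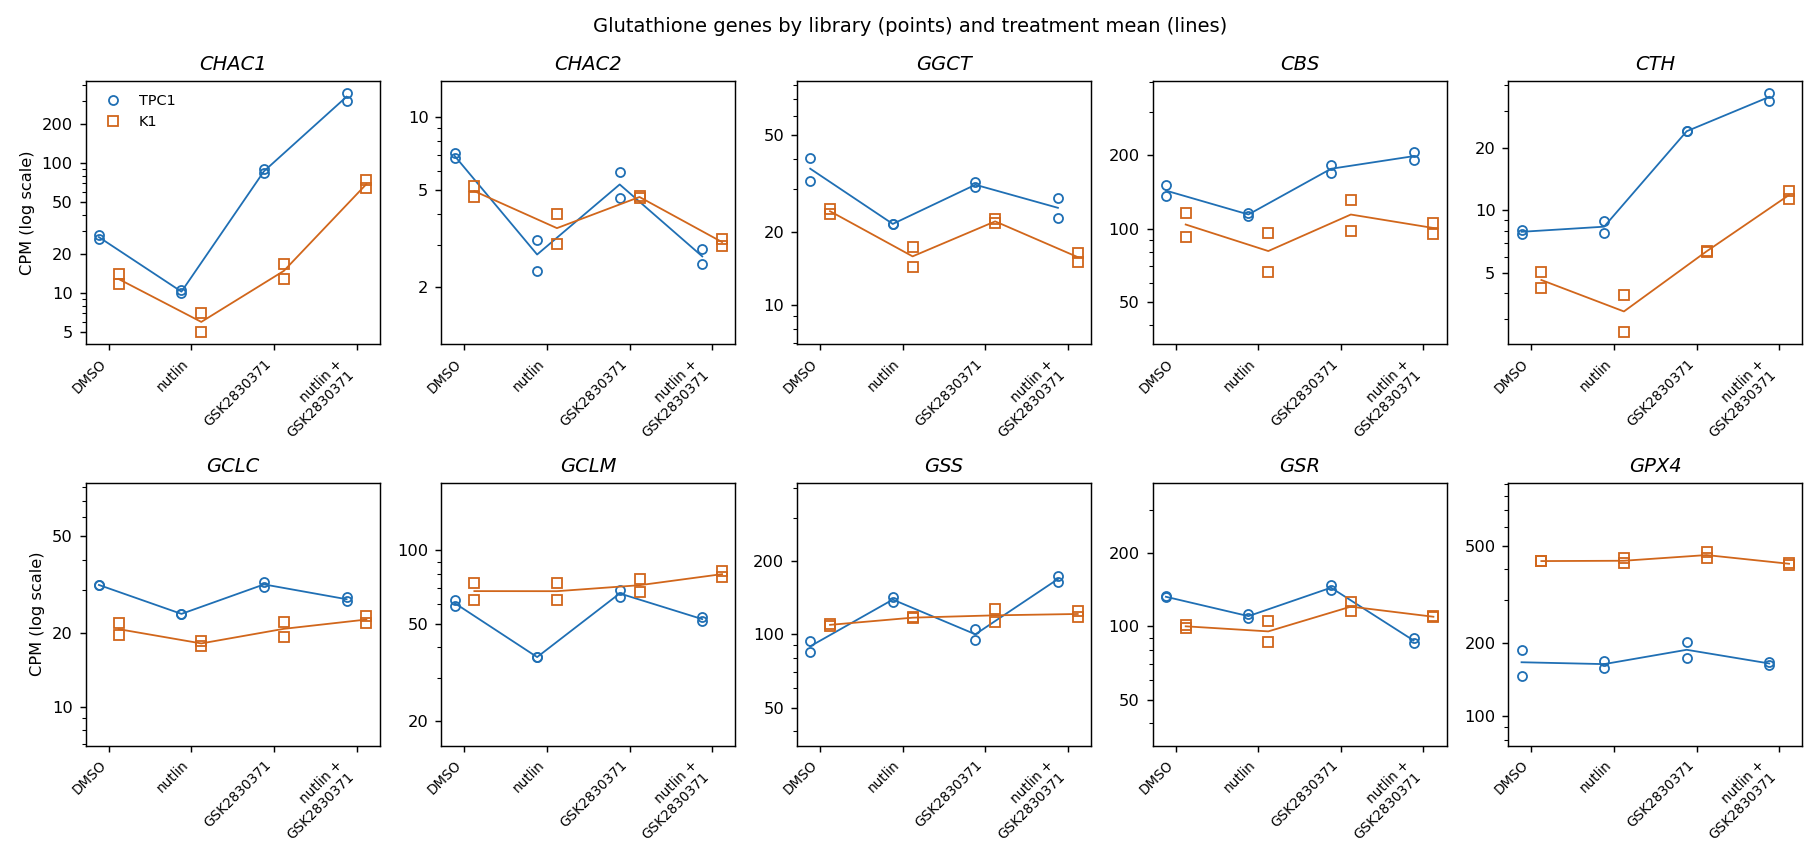
Level in CPM (log y axis, 1 panel per gene) of the 10 genes in each of the 16 libraries, by treatment on the x axis; circles are TPC1 libraries, squares K1 libraries, and lines join the treatment means. CHAC1 spans 9.98 to 347.8 CPM in TPC1 and 5.01 to 74.1 in K1, and GPX4 keeps to 145.9 to 200.8 CPM in TPC1 and 417 to 471 in K1.

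CHAC1 moved in opposite directions under nutlin and under the combination. In TPC1 its 2 libraries read 26.0 and 27.8 CPM under DMSO, 10.5 and 9.98 under nutlin, 83.4 and 90.2 under GSK2830371, and 303.5 and 347.8 under the combination. No 2 of these treatments overlapped. The fall with nutlin was 1.44 on the log2 scale (2.7-fold, a log2 change of -1.44, SE 0.0921, edgeR adjusted p = 1.64e-06), and the rise with GSK2830371 was 3.22-fold (log2 1.69, SE 0.0874, edgeR adjusted p = 0.000192). Under the combination CHAC1 was 11.9-fold above DMSO (log2 3.57, SE 0.093, edgeR adjusted p = 5.59e-09) and 32.1-fold above nutlin alone (log2 5.00, SE 0.101, edgeR adjusted p = 4.53e-08). In bulk RNA, a change in the number of cells that express a gene and a change in RNA per cell cannot be told apart, here and for every gene that follows.

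In K1 the CHAC1 libraries read 13.9 and 11.7 CPM under DMSO, 6.95 and 5.01 under nutlin, 12.9 and 16.7 under GSK2830371, and 64.0 and 74.1 under the combination. DMSO and GSK2830371 overlapped, and nutlin was below and the combination above every other library. CHAC1 fell 2.15-fold with nutlin (log2 -1.10, SE 0.164, edgeR adjusted p = 0.000175). The change with GSK2830371 was 0.21 (95% interval -0.10 to 0.52, edgeR adjusted p = 0.365). The combination raised CHAC1 5.4-fold over DMSO (log2 2.43, SE 0.132, edgeR adjusted p = 7.22e-09) and 11.6-fold over nutlin (log2 3.54, SE 0.149, edgeR adjusted p = 5.19e-08).

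Whether the effect of one drug depended on the other was tested as an interaction, the effect of nutlin in the presence of GSK2830371 minus its effect without it. For CHAC1 it was 3.31 in TPC1 (SE 0.126, edgeR adjusted p = 1.26e-05) and 3.33 in K1 (SE 0.209, edgeR adjusted p = 8.47e-06), where 2.82% and 1.79% of all genes had a positive interaction called. CHAC1 was the only one of the 10 called in TPC1, and CHAC1 and CTH were called in K1. None was called negative, where 3.5% and 0.654% of all genes were. At an unadjusted edgeR p under 0.05, 5 were positive (CBS, CHAC1, CTH, GCLM and GGCT) and 1 negative (GSR) in TPC1. In K1 3 were positive (CHAC1, CTH and GCLC) and 0 negative. The CBS interaction in TPC1 was 0.50 (SE 0.106, edgeR adjusted p = 0.0226) and was not called because it stayed under 1.5-fold. The difference of the CHAC1 interaction between the lines was 0.02 (95% interval -0.56 to 0.60). The median interaction of the 10 was 0.37 in TPC1 and 0.14 in K1, and of all genes 0.02 and -0.03.

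CHAC2, the constitutive relative of CHAC1 that cleaves glutathione more slowly, did not follow it. In TPC1 it read 6.79 and 7.10 CPM under DMSO, 2.33 and 3.13 under nutlin, 4.66 and 5.93 under GSK2830371, and 2.50 and 2.87 under the combination. Both nutlin groups lay below every library without nutlin and overlapped each other. CHAC2 fell with nutlin (log2 -1.35, SE 0.172, edgeR adjusted p = 0.000142) and with the combination (log2 -1.39, SE 0.172, edgeR adjusted p = 8.84e-05), and the combination differed from nutlin by -0.04 (SE 0.184). In K1 it read 5.22 and 4.72 CPM under DMSO, 3.01 and 3.99 under nutlin, 4.66 and 4.74 under GSK2830371, and 2.97 and 3.17 under the combination. Again the libraries with nutlin lay below those without. There CHAC2 fell with the combination (log2 -0.69, SE 0.151, edgeR adjusted p = 0.0021), and its change of -0.50 with nutlin stayed under 1.5-fold (SE 0.15, edgeR adjusted p = 0.0227), though not without nutlin replicate 2, where it was -0.72 and was called. The lowest CHAC2 library held 69 reads.

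Per kb of transcript, CHAC1 made up 76.8% and 77.2% of the summed CHAC1 and CHAC2 level in the TPC1 DMSO libraries, 79.5% and 73.3% under nutlin, 93.9% and 92.9% under GSK2830371, and 99.1% in both libraries under the combination. In K1 the share was 69.7% and 68.1% under DMSO, 66.5% and 51.9% under nutlin, 70.4% and 75.2% under GSK2830371, and 94.9% and 95.3% under the combination. The share under the combination lay above every other library of its line.

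GGCT, gamma-glutamylcyclotransferase, read 32.5 and 40.3 CPM under DMSO in TPC1, 21.6 in both nutlin libraries, 30.5 and 32 under GSK2830371, and 22.8 and 27.5 under the combination. In K1 the values were 23.8 and 24.9, 14.4 and 17.4, 22.5 and 21.7, and 15.1 and 16.5 CPM in the same order. Every library with nutlin lay below every library without it in both lines. GGCT fell with nutlin in TPC1 (log2 -0.79, SE 0.112, edgeR adjusted p = 0.000286) and in K1 (log2 -0.61, SE 0.0912, edgeR adjusted p = 0.000179), and with the combination in K1 (log2 -0.63, SE 0.0906, edgeR adjusted p = 7.95e-05). The TPC1 combination gave -0.56 (SE 0.111, edgeR adjusted p = 0.00176), 1.47-fold. The K1 values and the TPC1 combination value lie near the 1.5-fold threshold. The K1 nutlin value was -0.58 without DMSO replicate 2 or with a correction for GC content and length (chosen once the data were known) and -0.49 without nutlin replicate 1. The K1 combination value was -0.57 without combination replicate 1. Each of these was under 1.5-fold. The TPC1 combination value was over 1.5-fold in 2 fits, at -0.68 without DMSO replicate 1 and -0.69 without combination replicate 3.

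CTH, the cystathionine gamma-lyase that releases cysteine, was the other gene raised by the combination in both lines. In TPC1 it read 8.06 and 7.74 CPM under DMSO, 7.79 and 8.93 under nutlin, 24.1 and 24.0 under GSK2830371, and 36.7 and 33.6 under the combination. DMSO and nutlin overlapped, and the libraries with GSK2830371 were all higher. CTH rose 3.05-fold with GSK2830371 (log2 1.61, SE 0.098, edgeR adjusted p = 0.000267), 4.37-fold with the combination (log2 2.13, SE 0.0983, edgeR adjusted p = 1.37e-07) and 4.19-fold from nutlin to the combination (log2 2.07, SE 0.0988, edgeR adjusted p = 5.32e-06). With nutlin alone its change was 0.06 (SE 0.102, edgeR adjusted p = 0.645), the drug under which CHAC1 fell. The interaction was 0.46 (SE 0.137, edgeR adjusted p = 0.0739).

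In K1, CTH read 4.23 and 5.04 CPM under DMSO, 3.94 and 2.61 under nutlin, 6.30 and 6.42 under GSK2830371, and 11.3 and 12.4 under the combination. The order of treatments was nutlin, DMSO, GSK2830371 and combination with no overlap. CTH rose 2.56-fold with the combination (log2 1.35, SE 0.146, edgeR adjusted p = 5.35e-06) and 3.65-fold from nutlin to the combination (log2 1.87, SE 0.158, edgeR adjusted p = 2.02e-05). Its change with nutlin was -0.51 (SE 0.174, edgeR adjusted p = 0.0394), under 1.5-fold, and with GSK2830371 0.45 (SE 0.157, edgeR adjusted p = 0.0606). The nutlin change was called without DMSO replicate 1 (-0.63) or nutlin replicate 1 (-0.83). The K1 interaction of 1.42 (SE 0.225, edgeR adjusted p = 0.00722) was not called without nutlin replicate 2, where it was 1.14 (edgeR adjusted p = 0.0577).

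CBS, cystathionine beta-synthase, catalyses the step before CTH. In TPC1 it read 135.8 and 150.6 CPM under DMSO, 112.5 and 116 under nutlin, 169.3 and 182.7 under GSK2830371, and 191.3 and 205.3 under the combination, with no overlap between treatments. It rose from nutlin to the combination (log2 0.80, SE 0.0755, edgeR adjusted p = 0.000169), and the changes against DMSO stayed under 1.5-fold: -0.36 with nutlin (edgeR adjusted p = 0.00287), 0.30 with GSK2830371 (0.0663) and 0.44 with the combination (0.000671). In K1 it read 92.1 and 115.7, 95.6 and 66.1, 130.9 and 97.5, and 105.8 and 95.3 CPM. The nutlin, GSK2830371 and combination libraries each overlapped DMSO, and none of the K1 comparisons was called (log2 changes -0.36, 0.14 and -0.05 against DMSO). Without nutlin replicate 1 the K1 nutlin change was -0.65 and was called (edgeR adjusted p = 0.0187). Per kb, CBS stood above CTH in every group: under DMSO at mean levels of 57.4 and 3.78 CPM per kb in TPC1 and 41.6 and 2.22 in K1.

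GCLC, the catalytic subunit of glutamate cysteine ligase, kept within 1.5-fold in every comparison within a line. In TPC1 it read 31.6 CPM in both DMSO libraries, 24.1 and 24.0 under nutlin, 31.1 and 32.4 under GSK2830371, and 27.1 and 28.1 under the combination, and its change with nutlin was -0.43 (SE 0.0717, edgeR adjusted p = 0.000771). In K1 all libraries lay between 17.7 and 23.5 CPM, and the combination stood 0.32 above nutlin (edgeR adjusted p = 0.0316). Both lines showed nutlin as the lowest treatment of GCLC.

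GCLM, the modifier subunit, fell with nutlin in TPC1, and the difference between the lines in that effect was called (K1 minus TPC1 0.74, edgeR adjusted p = 0.000496). In TPC1 it read 62.7 and 58.9 CPM under DMSO, 36.5 and 36.4 under nutlin, 64.1 and 69.0 under GSK2830371, and 51.2 and 53.2 under the combination. The fall with nutlin was a log2 change of -0.77 (SE 0.08, edgeR adjusted p = 3.7e-05), and the combination stood 0.53 above nutlin, under 1.5-fold (SE 0.08, edgeR adjusted p = 0.00187). With the GC and length correction the nutlin change was -0.58 and was not called. In K1 it read 62.7 and 73.4, 73.2 and 62.8, 76.5 and 67.4, and 82.2 and 77.6 CPM. The K1 treatments other than the combination overlapped, and none of the K1 changes was called (-0.002 with nutlin, 0.08 with GSK2830371 and 0.23 with the combination).

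GSS, glutathione synthetase, was the synthesis enzyme that rose in TPC1. It read 84.4 and 94.2 CPM under DMSO, 142.3 and 135.4 under nutlin, 94.4 and 105.6 under GSK2830371, and 163.7 and 173.5 under the combination, so both treatments with nutlin stood above both without it. Its change was 0.60 with nutlin (SE 0.0809, edgeR adjusted p = 2e-04) and 0.89 with the combination (SE 0.0811, edgeR adjusted p = 1.15e-05). The nutlin value lies close to the fold threshold. It was 0.55 without DMSO replicate 1, 0.56 without nutlin replicate 1 and 0.57 when scaled by library size alone, each under 1.5-fold and so not called. In K1 the 8 libraries lay between 108.6 and 126.5 CPM, with changes of 0.10, 0.13 and 0.15 against DMSO that were not called.

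GSR, glutathione reductase, read 132 and 132.8 CPM under DMSO in TPC1, 112.6 and 107.9 under nutlin, 141.1 and 147.4 under GSK2830371, and 89.6 and 85.6 under the combination. The 4 treatments did not overlap, and GSR fell with the combination (log2 -0.62, SE 0.0717, edgeR adjusted p = 5.4e-05). That value was -0.58 and not called without combination replicate 3, and -0.56 and not called with the GC and length correction. In K1 GSR lay between 86.0 and 125.7 CPM, highest under GSK2830371 at 115.5 and 125.7 (log2 change 0.27, edgeR adjusted p = 0.0284, under 1.5-fold).

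GPX4, the peroxidase of membrane lipids, was not called in any comparison within a line. In TPC1 its 2 libraries per treatment read 145.9 and 186.7, 157.8 and 169, 173.4 and 200.8, and 161.9 and 166.9 CPM. The log2 change with nutlin was -0.06 (95% interval -0.30 to 0.18), with GSK2830371 0.17 (-0.07 to 0.42) and with the combination -0.04 (-0.29 to 0.20). In K1 the values were 432.9 and 432.8, 424.8 and 443.5, 470.7 and 445.6, and 426.9 and 417 CPM, and the combination gave -0.04 (95% interval -0.15 to 0.07). The DMSO libraries overlapped every other treatment in TPC1. These intervals leave room for changes smaller than 1.5-fold.

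**Figure D2:**
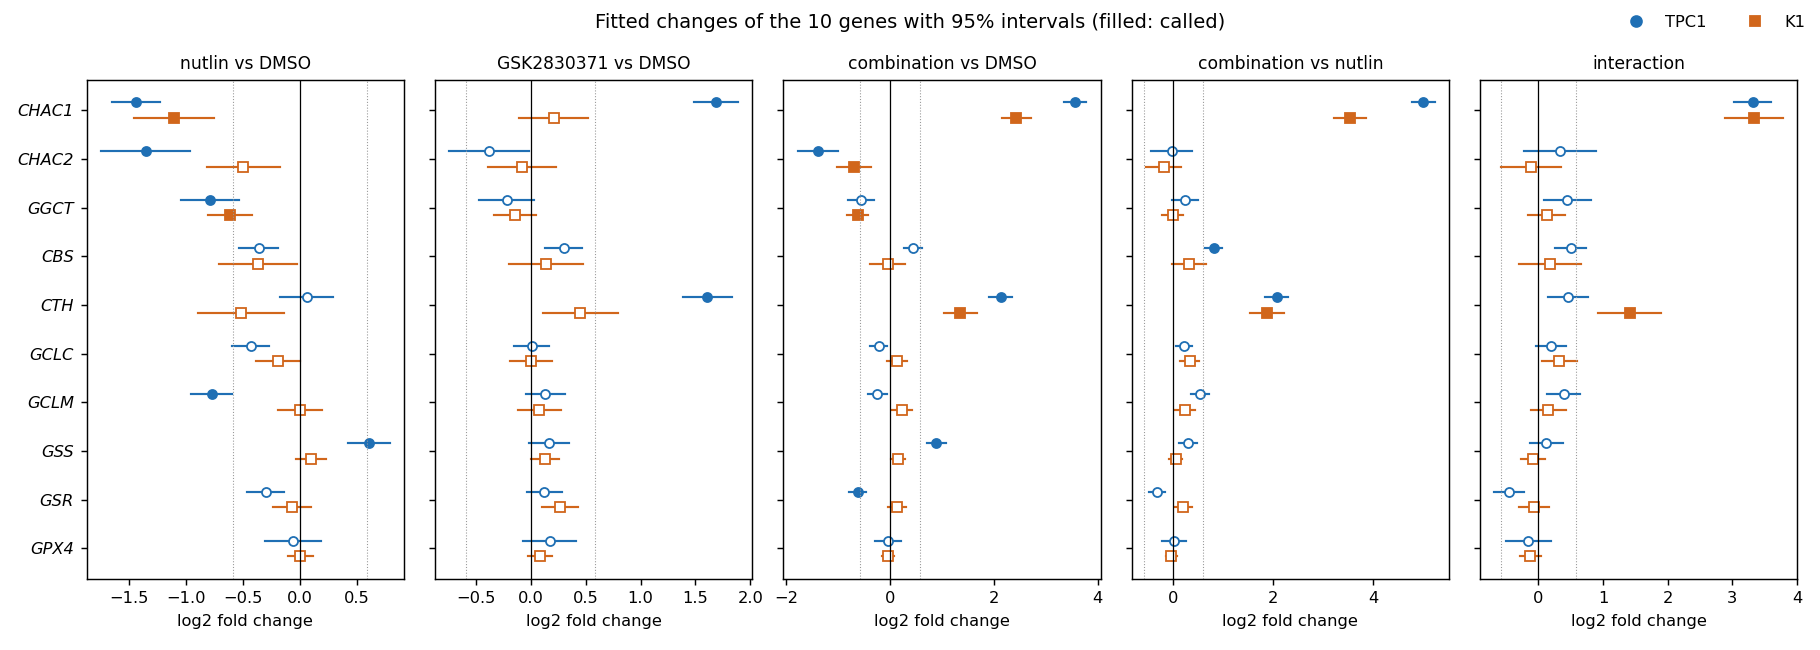
Fitted log2 fold change (x axis) with its 95% interval for each of the 10 genes (y axis) in TPC1 and K1, 1 panel for each of the 5 comparisons, with filled points called and dotted lines at 1.5-fold. CHAC1 reaches 5.00 (TPC1) and 3.54 (K1) from nutlin to the combination, and the GPX4 points lie between the dotted lines in every panel.

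In order of mean level per kb under DMSO, TPC1 ran GPX4 (195.4 CPM per kb), CBS (57.4), GSS (46.8), GSR (43.6), GGCT (31.4), CHAC1 (17.7), GCLM (12.5), GCLC (8.35), CHAC2 (5.30) and CTH (3.78). K1 ran GPX4 (508.6), GSS (57.3), CBS (41.6), GSR (33), GGCT (21.0), GCLM (13.9), CHAC1 (8.42), GCLC (5.50), CHAC2 (3.80) and CTH (2.22). Under the combination CHAC1 reached 214.2 CPM per kb in TPC1, beside 193.2 for GPX4, and 45.4 in K1, beside 495.8 for GPX4. CTH reached 16.8 and 5.68 there.

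The lines were compared in a fit over all 16 libraries and 16738 genes. Under DMSO, K1 stood below TPC1 in CHAC1 (log2 difference -1.08, SE 0.137, edgeR adjusted p = 2.78e-06), CTH (-0.76, SE 0.138, edgeR adjusted p = 0.000122) and GCLC (-0.60, SE 0.0838, edgeR adjusted p = 7.78e-06) and above it in GPX4 (1.38, SE 0.0991, edgeR adjusted p = 2.54e-09). That is 3 lower and 1 higher of 10, where 21.2% of all genes were called lower and 25% higher in K1. The GCLC value was -0.52 and not called without K1 DMSO replicate 1, GGCT was called lower without TPC1 DMSO replicate 1 (-0.73) or K1 DMSO replicate 2 (-0.62), and CBS without K1 DMSO replicate 2 (-0.64).

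The response of CHAC1 to GSK2830371 was smaller in K1 than in TPC1 by 1.48 on the log2 scale (a difference of -1.48, edgeR adjusted p = 0.00157), and that of CTH by 1.15 (-1.15, edgeR adjusted p = 0.00636). They were the 2 of 10 called lower, against 1.58% of all genes lower and 0.597% higher. With the combination the difference from DMSO was smaller in K1 for CHAC1 (-1.16, edgeR adjusted p = 0.000103), CTH (-0.80, edgeR adjusted p = 0.0024) and GSS (-0.77, edgeR adjusted p = 4.82e-05) and more positive for CHAC2 and GSR, 3 and 2 of 10, against 13.8% and 11.9% of all genes. From nutlin to the combination the CHAC1 difference was -1.46 (edgeR adjusted p = 0.000372), the only call among the 10, where 2.56% of all genes were called in each direction. With nutlin, GCLM and CHAC2 were more positive in K1 and CTH more negative, 2 and 1 of 10, against 8.73% and 10.5% of all genes. None of the 10 interactions was called as different between the lines, against 1.95% of genes higher and 1.19% lower, and 2 were higher (CTH and GSR) and 0 lower at an unadjusted edgeR p under 0.05. The CTH difference was 0.96 (SE 0.271, edgeR adjusted p = 0.0633), and DESeq2 called it (0.94). With the column numbers as a replicate block it was 0.97 and was also called (edgeR adjusted p = 0.0234), in a fit that called 826 genes higher and 442 lower where the fit without the block called 326 and 199. It was also called without TPC1 DMSO replicate 1 (0.99), TPC1 combination replicate 1 (1.03) or K1 nutlin replicate 1 (1.28).

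To set CHAC1 beside the synthesis genes, it was divided in each library by the geometric mean of GCLC, GCLM and GSS, each as CPM plus 0.5, on the log2 scale. CHAC2 and GGCT are left out of this ratio of mRNA levels, which measures neither glutathione nor enzyme activity. The ratio is not scaled by length, so only its differences between libraries are read, and it was not tested. In TPC1 it was -1.07 and -0.996 under DMSO, -2.21 and -2.25 under nutlin, 0.54 in both libraries under GSK2830371, and 2.30 and 2.44 under the combination. In K1 it was -1.85 and -2.22, -2.86 and -3.25, -2.12 and -1.70, and 0.04 and 0.33. From nutlin to the combination the mean rose by 4.59 in TPC1 and 3.24 in K1, and from DMSO to the combination by 3.40 and 2.22. DMSO and GSK2830371 overlapped in K1, and the other treatments stood apart in both lines.

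**Figure D3:**
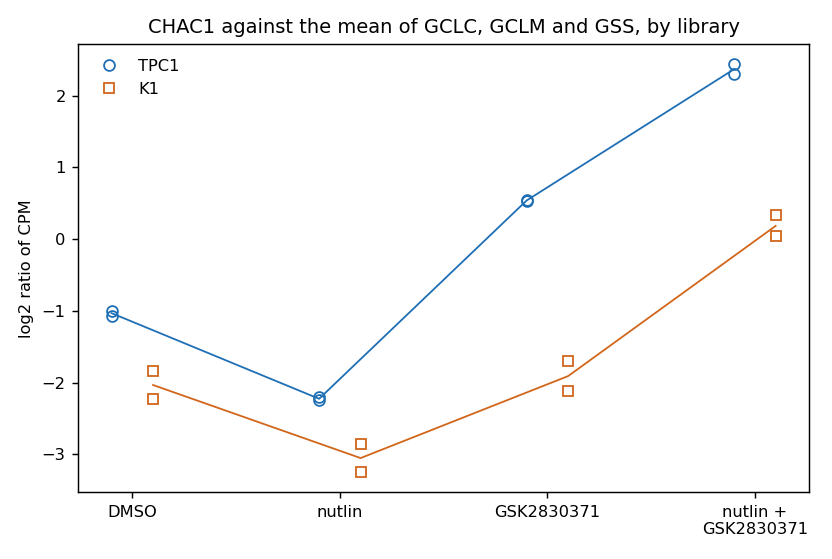
Log2 ratio of CHAC1 to the geometric mean of GCLC, GCLM and GSS (y axis, CPM plus 0.5) in each of the 16 libraries, by treatment (x axis) and line. The combination libraries lie highest in both lines, at 2.30 and 2.44 in TPC1 and 0.04 and 0.33 in K1.

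The genes whose pattern was most like that of CHAC1 were ranked by Pearson's r of log2(CPM + 0.5) after centring on each line's mean, over 16 libraries and 11621 genes above a mean of 1 CPM. The first 5 were NCOA7 (r = 0.962), ATF4 (0.959), MTHFD2 (0.956), SLC7A11 (0.952) and CTH (0.947). The points share their libraries, treatments and scaling, and the values are a description. CBS followed at rank 251 (0.719), then GCLM (0.525), GCLC (0.498), GSS (0.337), GPX4 (0.0383), GGCT (-0.0388), GSR (-0.193) and CHAC2 (-0.217). SLC7A11, the cystine importer of system xc-, averaged 38.8, 18.6, 73.0 and 118.2 CPM under DMSO, nutlin, GSK2830371 and the combination in TPC1 and 40.8, 25.7, 33.5 and 102.9 in K1. Its libraries differed within a group, at 48.15 and 29.4 CPM under TPC1 DMSO. In K1 they read 34.7 and 16.6 CPM under nutlin, and 94.3 and 111.4 under the combination. ATF4 averaged 655, 499.6, 815.6 and 1061 CPM in TPC1 and 392.6, 335, 445.5 and 757.2 in K1. From nutlin to the combination the log2 changes in TPC1 and K1 were 1.81 and 1.13 for NCOA7, 1.09 and 1.18 for ATF4, 2.16 and 1.43 for the mitochondrial folate enzyme MTHFD2, and 2.69 and 2.01 for SLC7A11, all called, and each smaller than the 5.00 and 3.54 of CHAC1.

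**Figure D4:**
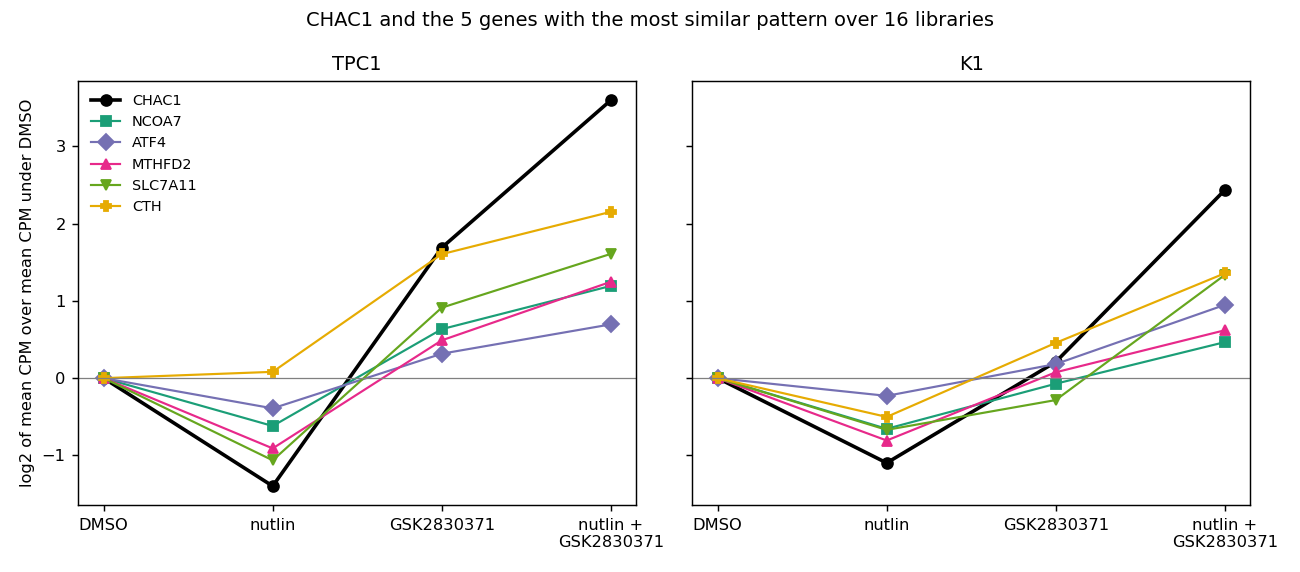
Mean CPM over the mean under DMSO (log2, y axis) by treatment (x axis) for CHAC1, NCOA7, ATF4, MTHFD2, SLC7A11 and CTH, with TPC1 and K1 in separate panels. CHAC1 lies highest of the 6 under the combination in both lines, and in each line it is below its DMSO mean under nutlin.

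Of the other stress response genes named for their role, DDIT3 and TRIB3 rose with the combination over nutlin in both lines, DDIT3 by 3.72 (TPC1) and 0.81 (K1) and TRIB3 by 1.59 and 0.81 on the log2 scale, and ATF3 by 2.84 and 1.495. In TPC1 nutlin alone raised DDIT3 (1.62, edgeR adjusted p = 2.56e-05) and ATF3 (1.69, edgeR adjusted p = 2.43e-05) while CHAC1 fell. The paper describes ATF3 as a direct target of p53 as well as of ATF4. In K1, where CHAC1 also fell with nutlin, DDIT3 (0.079, edgeR adjusted p = 0.566) and ATF3 (0.625, edgeR adjusted p = 0.231) were not called. The K1 libraries under DMSO and nutlin held only 22 to 56 reads of ATF3. NFE2L2 and its target NQO1 were not called in any comparison within a line: in TPC1 NFE2L2 averaged 108.7, 109.6, 104.2 and 112.4 CPM, and in K1 91.9, 78.9, 73.7 and 91.1, while NQO1 averaged 335.6, 421.7, 374.9 and 463 in TPC1 and 178.8, 182.3, 194.2 and 189.4 in K1. Some of their changes had an adjusted p under 0.05 but stayed under 1.5-fold. In K1 NFE2L2 changed by -0.32 with GSK2830371 (edgeR adjusted p = 0.00392) and by -0.22 with nutlin (edgeR adjusted p = 0.018). From nutlin to the combination it changed by 0.21 (edgeR adjusted p = 0.0498), and its interaction was 0.53 (edgeR adjusted p = 0.0087). In TPC1 NQO1 changed by 0.44 with the combination (edgeR adjusted p = 0.0144). The part of any of these regulators in the values of the 10 genes was not tested.

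Further genes around the pathway were taken from 6 lists of 104 genes by role. The lists were drawn up with earlier results of these data known, so their counts are a description and not a test. From nutlin to the combination 12 of 79 tested rose and 5 fell in TPC1, and 5 of 82 rose and none fell in K1, beside the 6.46%, 5.66%, 1.16% and 1.52% of all genes given above. In K1 all 5 belonged to the list of cystine and amino acid uptake and cysteine breakdown, where 5 of 13 rose. In TPC1 5 of 12 of that list rose and SUOX, sulfite oxidase, fell (-0.68). The median log2 change of this list was 0.28 in TPC1 and 0.31 in K1, and of all genes 0.01 and 0.004.

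Among its members called in both lines, SLC7A11 is given above and SLC3A2, its heavy chain partner, rose by 1.03 in TPC1 and 1.21 in K1. SLC3A2 averaged 568.1 CPM under nutlin and 1152 under the combination in TPC1, and 141.5 and 327.7 in K1. SLC1A4, a carrier of small neutral amino acids, rose by 3.32 (SE 0.113, edgeR adjusted p = 1.17e-06) and 1.14 (SE 0.116, edgeR adjusted p = 7.92e-05), or 2.64 to 25.8 CPM (TPC1) and 22.3 to 49.1 CPM (K1). The glutamine carrier SLC1A5 rose by 1.81 and 0.76, or 180.9 to 629.4 CPM (TPC1) and 215.6 to 365.3 CPM (K1). SLC1A4 and SLC1A5 fell with nutlin alone in TPC1, by 2.68 and 1.30, as CHAC1 did. GOT1, the cytosolic aspartate aminotransferase, rose in TPC1 (1.45, from 69.2 to 188.4 CPM), and the glutamate carrier SLC1A1 rose in K1 (0.88) where TPC1 gave -0.12.

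Beside these counts, the numbers at an unadjusted edgeR p under 0.05 in K1 were 0 higher and 1 lower of the methionine cycle, 1 and 2 of the gamma-glutamyl cycle, 5 and 2 of the peroxidases and transferases, 3 and 2 of NADPH supply, and 5 and 4 of the selenoprotein list. In the methionine cycle, which supplies homocysteine to CBS, 1 of 7 genes fell and none rose in TPC1, and none of 8 was called in K1. The gene was MAT2A, which makes S-adenosylmethionine, at -0.59 (SE 0.0679). It averaged 348.4 CPM under DMSO, 217.9 under nutlin, 317.5 under GSK2830371 and 143.9 under the combination in TPC1, and between 261.9 and 298.3 in K1. In the gamma-glutamyl cycle and glutathione transport 1 of 12 rose in TPC1, the exporter ABCC3 (0.72), and none of 12 was called in K1. Of the glutathione peroxidases, transferases and glutaredoxins 1 of 21 rose in TPC1, GSTZ1 (0.73), GLRX fell from a mean of 33.2 to 22.1 CPM, GSTA2 was called lower with a mean of 0.245 CPM or less in each group, and none of 23 was called in K1. Of 11 genes of NADPH supply, on which GSR depends, IDH2 fell in TPC1 (-0.77) and none was called in K1.

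In the list of selenoprotein synthesis and lipid peroxidation, which bears on GPX4 as a selenoprotein, 5 of 16 rose in TPC1 from nutlin to the combination (GCH1, SEPHS2, SAT1, PSTK and ALOX5, the last with no count under DMSO), none fell, and none of 15 was called in K1. ALOX5 passed the filter on low counts only through treated libraries, so its place in the TPC1 counts follows in part from the filter. GCH1, the first enzyme of tetrahydrobiopterin synthesis, rose by 1.30, from 4.61 to 11.4 CPM. Against DMSO, 9 of the 16 rose with the combination in TPC1, ALOX5 among them, and SEPHS1 fell, with a list median of 0.87, where 22.5% of all genes were called higher and 21.7% lower. In K1 2 of 15 rose (GCH1 and SAT1) and SEPHS1 fell, close to the 7.62% and 8.09% of all genes called higher and lower there. GPX4 itself gave the changes near 0 listed above in both lines.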

How the data were processed

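Strand-specific poly(A)+ RNA-seq of TPC1 and K1 was deposited as raw read counts per gene, made by the authors with TopHat2 2.0.13 and Bowtie2 2.2.3.0 on hg19 (GRCh37), SAMtools 1.3.1, Picard 1.129 and HTSeq 0.6.1 per the labels, after removal of reads of low mapping quality. Library totals (28888686 to 76648552) set the counting precision. Here, a gene entered a line's fit when 2 or more of its libraries exceeded 0.1 CPM, and was fitted with edgeR 4.0.16 (R 4.3.3) by its quasi-likelihood test with TMM scaling, 1 coefficient per treatment and 8 libraries per line, or 16 for differences between lines, and Benjamini-Hochberg adjustment. SEs are the log2 change divided by the square root of F. Printed CPM use TMM over all 16 libraries. Named genes were the 10, reference genes by role, list genes called in both lines or the 2 largest per list and line from nutlin to the combination, and the 5 most like CHAC1. The members and lists were chosen with earlier results of these data known. ALOX5, GLRX and other genes completing a count were named after their values were seen. Alternatives were DESeq2 1.42.0 size factors and Wald test, library size alone, other filters, the compared groups alone, a replicate block, each library left out and, added later, a correction for GC content and length. That correction and the fit of the compared groups were run within a line only. Scripts were tested on simulated counts. No replicate pair agreed within sampling noise (chi-square per degree of freedom between replicates 4.96 or more). Positions come from GENCODE on GRCh37 and promoters from RefSeq on GRCh38.p14, with no promoter printed for GSS, GGCT and GSR.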

Additional observations from a re-analysis of the deposited data

Results flagged for a closer look

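The results below are those in which the effect of a treatment differed between K1 and TPC1 by the test of the difference itself, from edgeR's quasi-likelihood test over 16 libraries with Benjamini-Hochberg adjustment. Values are K1 minus TPC1 on the log2 scale. Line goes with culture medium, and sequencing run was taken to go with line too, so that these cannot be told apart. Of the TPC1 libraries, only those numbered 3 were deeper than every K1 library (62853375 reads or more, against at most 37161241). The part of depth was not tested.

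For CHAC1 the difference was -1.48 under GSK2830371 (edgeR adjusted p = 0.00157), -1.16 under the combination against DMSO (edgeR adjusted p = 0.000103) and -1.46 from nutlin to the combination (edgeR adjusted p = 0.000372). All 3 kept their call under each of the 22 alternatives run. The GC and length correction and the fit of the compared groups alone were not run for any line difference. The response to nutlin was not called as different for CHAC1, and neither was the interaction.

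For CTH the difference was -1.15 under GSK2830371 (edgeR adjusted p = 0.00636), -0.80 under the combination against DMSO (edgeR adjusted p = 0.0024) and -0.61 under nutlin (edgeR adjusted p = 0.0335). The nutlin value lost its call without TPC1 DMSO replicate 3 (-0.58), TPC1 nutlin replicate 3 (-0.50), K1 DMSO replicate 2 (-0.48) or K1 nutlin replicate 2 (-0.33).

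For CHAC2 the difference was 0.81 under nutlin (edgeR adjusted p = 0.017) and 0.67 under the combination (edgeR adjusted p = 0.0391). The nutlin value was 0.65 without TPC1 nutlin replicate 1, 0.74 without K1 DMSO replicate 2 and 0.59 without K1 nutlin replicate 2, not called in any of the 3. The combination value lost its call without TPC1 DMSO replicate 3 (0.63), TPC1 combination replicate 1 (0.58), K1 DMSO replicate 1 (0.74) or replicate 2 (0.60), and K1 combination replicate 1 (0.68) or replicate 2 (0.62).

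GCLM differed by 0.74 under nutlin (edgeR adjusted p = 0.000496), GSS by -0.77 under the combination (edgeR adjusted p = 4.82e-05) and GSR by 0.73 under the combination (edgeR adjusted p = 0.00011).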

How the results depend on the processing

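Of 743 alternative values of the gene results that were called, 715 kept their call, 28 lost it and none changed sign. Of 2157 alternative values of results not called, 2037 stayed so, 23 gained a call and 97 changed sign, with a size of at most 0.214 on the log2 scale. CHAC1 kept its call in every alternative run for each comparison in which it was called. Its log2 change from nutlin to the combination lay between 4.91 and 5.09 (TPC1) and between 3.31 and 3.79 (K1). Unless given below, the cause of a change was not tested. Depth limits CHAC2 and CTH most, whose lowest libraries held 69 and 85 reads, and 2 libraries per group limit every test. When a library was left out its group kept 1 library, which was assumed to vary like the other groups.

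Scaling by library size alone left no gene called higher for TPC1 nutlin, as GSS lost its call (0.57), gave 1 called higher in the line difference from nutlin to the combination (GSR 0.587), and called GGCT for the TPC1 combination (-0.612). With the GC and length correction, chosen once the data were known, GSR lost its call for the TPC1 combination (-0.558), which left 1 gene called lower, GGCT lost its call for K1 nutlin (-0.581), which also left 1, and GCLM was not called for TPC1 nutlin (-0.581). No gene was called lower in the line difference under nutlin by library size alone, edgeR's own expression filter or the DESeq2 Wald test (CTH lost its call, at -0.553, -0.559 and -0.582), and 1 was called higher in the line difference in the interaction by library size alone, no filter, the DESeq2 Wald test and the replicate block (CTH 1.078, 0.969, 0.944 and 0.972). The expression filter also called GGCT lower in K1 under DMSO (-0.585).

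The change in the ratio of CHAC1 to the synthesis genes was 4.727 (TPC1, nutlin to combination) and 3.761 (DMSO to combination) with GCLC alone as the denominator, and 4.278, 3.087, 2.66 and 1.822 with CHAC1 and CHAC2 summed (TPC1 then K1, nutlin then DMSO).

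Changes of sign concerned values near 0 that were not called. With DESeq2 size factors and the Wald test GCLC under TPC1 GSK2830371 was -0.001 in both, GCLM under K1 nutlin 0.007 and 0.008, GCLC under K1 GSK2830371 -0.015 and -0.014, and the line difference of GCLC under GSK2830371 0.006 and 0.005. With library size alone GPX4 was -0.003 (TPC1, nutlin to combination), -0.006 (K1 nutlin) and 0.001 (K1, nutlin to combination), GCLC -0.006 (K1 GSK2830371) and GGCT 0.031 (K1, nutlin to combination), and the line differences were 0.021 for CBS under nutlin, 0.018 for GGCT and 0.089 for GPX4 under the combination, and 0.004 for GPX4 from nutlin to the combination. With the GC and length correction GCLC was -0.006 (TPC1 GSK2830371), GCLM 0.134 and GPX4 -0.017 (K1 nutlin), CHAC2 0.133 (K1 GSK2830371), GPX4 0.004 (K1, nutlin to combination), and the K1 interactions of GCLM and GSS -0.185 and 0.044. The expression filter gave GCLC -0.003 (K1 GSK2830371), CBS 0.013 (line difference, nutlin) and CHAC1 -0.016 (line difference, interaction), and the fit of the compared groups alone GCLC -0.004 (K1 GSK2830371).

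With each library left out in turn, the number of the 10 genes called ran from 0 to 1 higher for TPC1 nutlin, 1 to 3 lower for K1 nutlin, 1 to 2 lower for the K1 combination and 1 to 2 higher for the K1 interaction. For the line differences it ran from 2 to 5 lower under DMSO, 1 to 2 higher and 0 to 1 lower under nutlin, 1 to 2 higher under the combination, 0 to 1 higher and 1 to 2 lower from nutlin to the combination, and 0 to 1 higher in the interaction. Values whose range crossed 0 follow, as the lowest and the highest log2 change. For TPC1 nutlin against DMSO it was CTH -0.045 to 0.139 and GPX4 -0.205 to 0.124. For TPC1 GSK2830371 against DMSO it was GCLC -0.008 to 0.033. For the TPC1 combination against DMSO it was GPX4 -0.189 to 0.136. For the TPC1 combination against nutlin it was CHAC2 -0.201 to 0.214 and GPX4 -0.025 to 0.06. For K1 nutlin against DMSO it was GCLM -0.117 to 0.117, GSR -0.218 to 0.067 and GPX4 -0.025 to 0.035. For K1 GSK2830371 against DMSO it was CBS -0.093 to 0.332, GCLC -0.105 to 0.102 and GCLM -0.03 to 0.197. For the K1 combination against DMSO it was CBS -0.203 to 0.126. For the K1 combination against nutlin it was CHAC2 -0.378 to 0.026 and GGCT -0.139 to 0.132. For the K1 interaction it was CHAC2 -0.297 to 0.106, CBS -0.065 to 0.472, GSS -0.16 to 0.006 and GSR -0.202 to 0.082. For the line difference under nutlin it was GGCT -0.022 to 0.286, CBS -0.327 to 0.207 and GPX4 -0.158 to 0.197. For the line difference under GSK2830371 it was GGCT -0.083 to 0.224, CBS -0.39 to 0.036, GCLC -0.112 to 0.095, GCLM -0.161 to 0.066, GSS -0.119 to 0.05 and GPX4 -0.277 to 0.078. For the line difference under the combination it was GGCT -0.26 to 0.048 and GPX4 -0.209 to 0.147. For the line difference from nutlin to the combination it was CHAC2 -0.413 to 0.077 and CTH -0.466 to 0.126. For the line difference in the interaction it was CHAC1 -0.206 to 0.267 and GPX4 -0.128 to 0.227.

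A replicate block on the column numbers left 159 of 160 gene results at the same call, and the exception was the line difference in the interaction for CTH (0.972, edgeR adjusted p = 0.0234, against 0.963 and 0.0633). The sources used here do not say that a number marks a shared culture or day. Same-numbered libraries deviated together in TPC1 (r from 0.494 to 0.698 over 6 pairs of treatments, where number 3 is also the deeper library) but not in K1 (-0.359 to 0.379). The values in the report carry no block, and whether the numbers pair the TPC1 libraries is not settled by these values.

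Over all genes, library size alone moved the median of the line difference in the interaction by 0.112 and its calls to 612 higher and 139 lower (326 and 199 with TMM). It moved those of TPC1 GSK2830371 to 166 and 85 (110 and 104), of the TPC1 interaction to 338 and 705 (431 and 534), of the K1 interaction to 404 and 77 (284 and 104), of the K1 combination against nutlin to 228 and 196 (184 and 242), and of the line differences to 74 and 373 under GSK2830371 (100 and 265), 2562 and 1867 under the combination (1991 and 2316) and 556 and 356 from nutlin to the combination (428 in each direction). TPC1 GSK2830371 had 200 and 177 calls with no filter, 239 and 241 with the block, 165 and 157 with the GC and length correction and 51 and 55 from its 2 groups alone. The block gave 714 and 859 in the TPC1 interaction, 174 and 439 in the line difference under GSK2830371 and 826 and 442 in that of the interaction, and no filter gave 143 and 468 and 744 and 380 in the last 2. The GC and length correction gave 53 and 42 for K1 GSK2830371 (117 and 238) and 26 and 39 for the K1 interaction, and the Wald test 55 and 224 for K1 GSK2830371.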
